A study of Oryctolagus cuniculus with 8 samples.

Results

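Expression of 5 genes of G1 to S control and proliferation transcription was examined in the forebrain of preterm rabbits: CCND2, MYBL2, EZH2, ATAD2 and CDKN1A. They were taken as every non-control probe of the array that was given 1 of these names through RefSeq, which gave 7 probes. All 5 genes could be compared, among 11250 genes or transcripts compared in all. The genes were chosen by their log2 intensities in this same comparison of dexamethasone with saline, so their differences are given as a description, without a test.

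The 4 dexamethasone samples came from New Zealand rabbit pups injected intramuscularly with 0.25 mg/kg of this synthetic glucocorticoid, 2 times daily over no more than 5 days. The 4 saline samples came from pups given saline instead. All pups of both groups had been delivered by Caesarean section on day 29 of a 32-day gestation, and forebrain RNA was taken on postnatal day 14; sex and litter are not stated in the labels used here. The samples of each group were named biological replicates, and 4 Agilent 2-colour arrays carried 2 samples of the same group each, odd numbers in Cy3 and even numbers in Cy5.

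A cell commits to DNA replication when D-type cyclins activate the kinases CDK4 and CDK6, which phosphorylate the RB proteins and release the E2F transcription factors. E2F then switches on the DNA synthesis genes and also MYBL2, EZH2 and ATAD2, while inhibitors such as CDKN1A hold the kinases back. In the perinatal forebrain this machinery works in dividing neural and glial progenitors, and CCND2 is the cyclin D of intermediate neuronal progenitors in rodents.

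The probes are shown because the identity of 1 of them had to be settled before its values could be read. Each probe is 60 bases long, and coordinates are on the build oryCun2 as the scanner files give them. Capitals mark a stop triplet that closes the probe when it is read in triplets from its first base, the sole stop in that frame. The CCND2 probe A_04_P065437 lies on the plus strand at chr8:30406864-30406923 and the MYBL2 probe A_04_P064977 on the minus strand at chr11:80935017-80935076.
CCND2: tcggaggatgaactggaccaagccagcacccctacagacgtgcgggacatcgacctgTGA
MYBL2: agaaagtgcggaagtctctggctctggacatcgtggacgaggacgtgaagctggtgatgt
EZH2 (A_04_P062562): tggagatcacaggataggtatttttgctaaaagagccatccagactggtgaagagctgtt
EZH2 (A_04_P062563): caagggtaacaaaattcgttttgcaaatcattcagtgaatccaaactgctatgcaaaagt
ATAD2 (A_04_P066713): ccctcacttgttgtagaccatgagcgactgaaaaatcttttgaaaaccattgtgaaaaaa
ATAD2 (A_04_P066712): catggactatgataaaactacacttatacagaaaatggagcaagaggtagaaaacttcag
CDKN1A: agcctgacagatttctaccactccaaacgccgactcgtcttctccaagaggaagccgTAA

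The array's own description calls the CCND2 probe cyclin D1, whereas the transcript accession of that probe belongs to CCND2 in RefSeq (assembly mOryCun1.1). Of 15 named genes within 1000000 bases of the probe on the array's build, 15 lie within the same distance of CCND2 in RefSeq and 0 lie that near to CCND1 or CCND3. The probe was therefore read as CCND2, and CCND1 has no probe of its own name here. The EZH2 probes lie on the plus strand at chr7:3201401-3201460 (A_04_P062562) and chr7:3201156-3201388 (A_04_P062563), and their starts are 72 bases apart in the transcript. The ATAD2 probes lie on the minus strand at chr3:139121341-139122788 (A_04_P066713) and chr3:139120524-139121269 (A_04_P066712), 131 bases apart in the transcript. The CDKN1A probe A_04_P062492 lies on the plus strand at chr12:26618363-26619857. For A_04_P062563, both ATAD2 probes and the CDKN1A probe these positions span more than 60 bases, from 233 to 1495, so those probes cross at least 1 intron of the build. Their GC content ran from 35.0% for A_04_P062563 and A_04_P066712 to 60.0% for CCND2. A search for runs of 20 bases shared with a member's probe found 0 other probes.

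The share of spots well above background, the scanner software's own flag, was higher in the dexamethasone samples within each dye, at 47.7% to 48.8% against 39.1% to 42.5% in the saline samples in Cy3 and at 62.9% to 64.3% against 52.9% to 59.7% in Cy5. Dexamethasone and saline arrays lay on different slides and were read in different scans, and with 0 slides holding both groups, the slide and scan cannot be told apart from the treatment. After normalisation all 10 probes for spiked-in RNA, added at labelling, were lower on the dexamethasone arrays, with differences of -0.56 to -0.30 and a median of -0.41 on the log2 scale, which is the size of the members' own differences; their part in the results was not tested. Of markers for the labelled tissue, the neuronal gene STMN2 averaged 16.92 in dexamethasone and 16.80 in saline on the log2 scale, and of the cerebellum and hindbrain markers with a probe, CALB1 passed the background flag in 8 samples, CBLN1 in 7, GBX2 in 4 and ATOH1 in 0.

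Across the 5 members, 4 had a lower mean with dexamethasone and 1, the inhibitor CDKN1A, a slightly higher one. On the log2 scale of normalised intensity the median difference of the members, dexamethasone minus saline, was -0.32, beside 0.02 over all genes tested, of which 45.7% lay below 0. The fit called 0 of the 5 members at an adjusted p under 0.05 (limma with Benjamini-Hochberg adjustment), and it called 7 of 11250 genes in all, or 0.0622%, of which 2 were higher and 5 lower. At an unadjusted p under 0.05 it had 1546 genes. That count of 7 became 0 without any 1 of the dexamethasone samples 1, 2, 3 and 4, and 15 without saline 2. It became 2215 without the array of saline 1 and 2 and 203 without the array of saline 3 and 4. Without the array of dexamethasone 1 and 2 it was 0, and without that of dexamethasone 3 and 4 it was 1. Leaving out an array left 1 array in its group, so the spread between arrays of that group was not measured. Nothing is read from the counts of those fits. Dexamethasone and saline values did not overlap for 3 of the 5 members, CCND2, MYBL2 and ATAD2, all lower with dexamethasone, where 7.44% of all genes showed such a separation downwards and 13.4% in either direction. Of the 7 probes, 0 were called (0.0338% of all probes), 6 lay below 0 (43.6% of all probes) and 3 had no overlap, all downwards (5.86% of all probes downwards, 12.4% either way). Since the members were chosen in this contrast, nothing is read from these counts. RNA came from bulk tissue, so fewer cells of a type and less RNA per cell cannot be told apart.

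**Figure D1:**
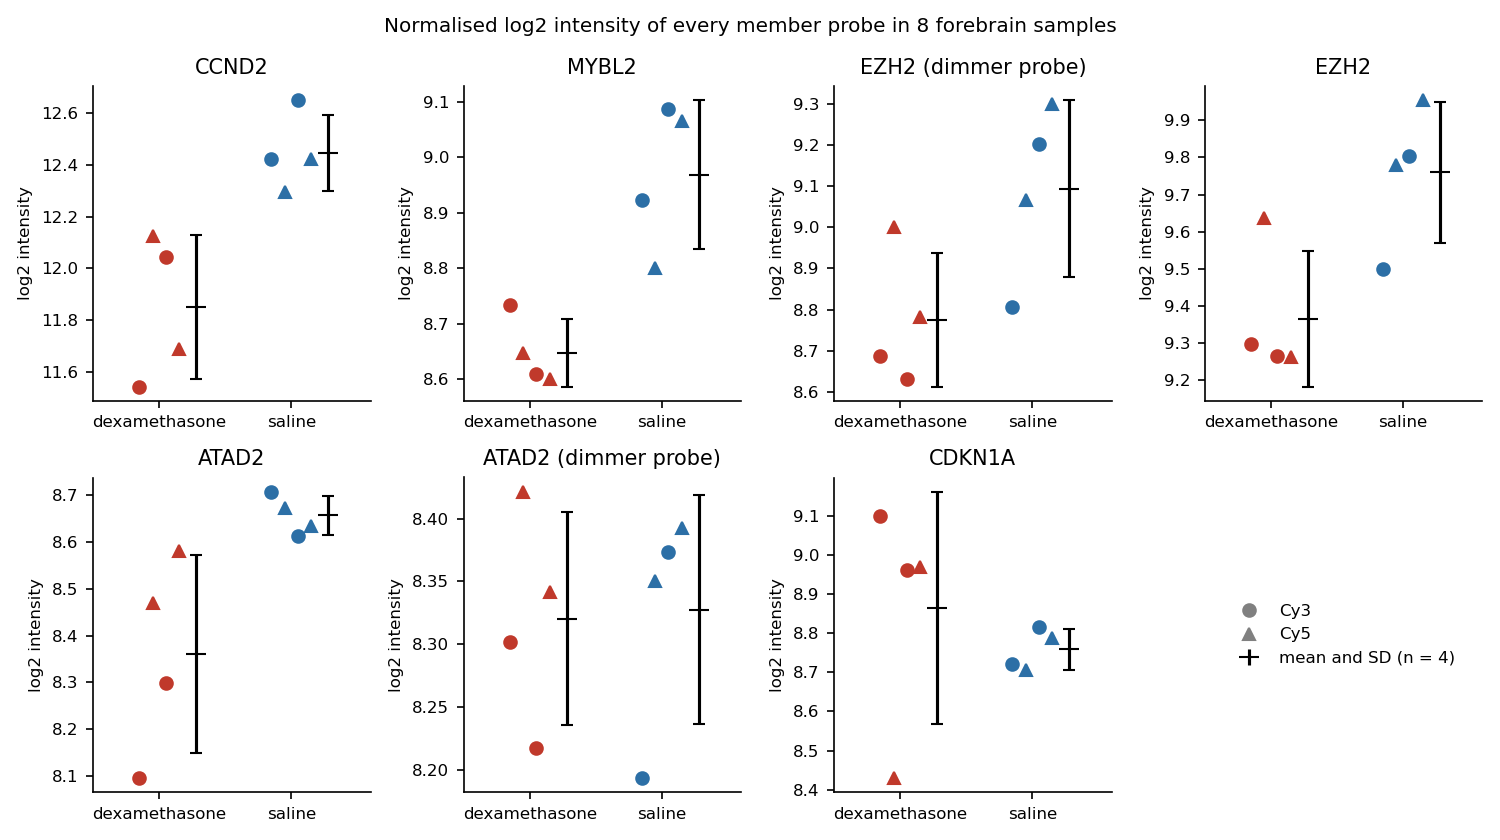
Normalised log2 intensity (vertical axes, each probe on its own scale) of the 7 member probes in the dexamethasone samples (left in each panel) and the saline samples (right), with circles for Cy3, triangles for Cy5 and black bars for mean and SD (n = 4). CCND2, MYBL2 and the brighter ATAD2 probe show dexamethasone samples wholly below saline samples, and CDKN1A shows dexamethasone samples on both sides of them.

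CCND2 encodes cyclin D2, a D-type cyclin that partners CDK4 and CDK6. Its log2 intensity was 11.54, 12.12, 12.04 and 11.69 in dexamethasone samples 1 to 4, against 12.42, 12.30, 12.65 and 12.42 in saline samples 1 to 4. Every dexamethasone sample lay below every saline sample, with a gap of 0.17 between the groups. The mean was 11.85 ± 0.28 with dexamethasone and 12.45 ± 0.15 with saline (SD, n = 4 each), a difference of -0.60 (SE 0.19), or 0.660 of the saline level. The difference was lower than that of all but 2.51% of the genes tested. Within Cy3 it was -0.74 and within Cy5 -0.45. Before normalisation the spot minus its local background read 2326 and 3058 in the Cy3 dexamethasone samples, against 3600 and 3270 in the Cy3 saline samples. In Cy5 it read 7515 and 4816 with dexamethasone, against 6352 and 7005 with saline, so that the groups overlapped there before normalisation. The direction of CCND2 rested on the normalisation. With each channel scaled to its 75th percentile and no loess its difference was 0.034, and with loess alone it was -0.32, in both cases 0.28 above the median of all genes under that processing.

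MYBL2 encodes B-Myb, a transcription factor that joins the MuvB complex and turns on genes of the G2 and M phases. Its log2 intensity was 8.73, 8.65, 8.61 and 8.60 with dexamethasone, against 8.92, 8.80, 9.09 and 9.06 with saline. The groups were apart by 0.07, and the dexamethasone samples were the more alike of the groups. The mean was 8.65 ± 0.06 with dexamethasone and 8.97 ± 0.13 with saline (SD, n = 4 each), a difference of -0.32 (SE 0.10), or 0.800 of the saline level. The dyes gave nearly the same value, -0.33 in Cy3 and -0.31 in Cy5. The spot minus its background was also lower in each dexamethasone sample than in each saline sample of the same dye before normalisation, at 222 and 186 with dexamethasone against 227 and 229 with saline in Cy3 and at 257 and 201 with dexamethasone against 272 and 391 with saline in Cy5. Of the 5 members only MYBL2 had that order in both dyes, and its signal was 7.28 to 13.2 times the background.

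EZH2 encodes the methyltransferase subunit of polycomb repressive complex 2, which places a repressive mark on histones. At the brighter probe its log2 intensity was 9.30, 9.64, 9.26 and 9.26 with dexamethasone, against 9.50, 9.78, 9.81 and 9.95 with saline. Dexamethasone 1, 3 and 4 lay below all saline values, and dexamethasone 2 lay above saline 1, so the groups overlapped. The mean was 9.36 ± 0.18 with dexamethasone and 9.76 ± 0.19 with saline (SD, n = 4 each), a difference of -0.39 (SE 0.13), or 0.761 of the saline level. The dimmer probe read 8.69, 9.0, 8.63 and 8.78 with dexamethasone, against 8.81, 9.07, 9.20 and 9.30 with saline. Its difference was -0.32 (SE 0.12), so both EZH2 probes gave a lower mean with dexamethasone, although the dimmer one was well above background in 4 dexamethasone samples and only 2 saline samples. Before normalisation the brighter probe overlapped in Cy3, where it read 401 and 344 with dexamethasone, against 362 and 330 with saline. In Cy5 it read 826 and 495 with dexamethasone, against 803 and 1006 with saline. The dimmer probe in Cy3 read 224 and 192 with dexamethasone, above both saline samples at 191 and 183. In Cy5 the dimmer probe overlapped, at 382 and 252 with dexamethasone against 377 and 553 with saline. In Cy3, therefore, EZH2 was lower with dexamethasone after normalisation and not before it. The fitted EZH2 difference was below 0 in all 29 alternatives run, 1 of which averages both probes. Those that changed only the fit or the filter on probes left it as it was, so they could not change its sign. With 75th percentile scaling and with loess alone, 39.1% of all genes had a lower difference than EZH2. That share was 6.28% as reported and 21.7% from processed signals.

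**Figure D2:**
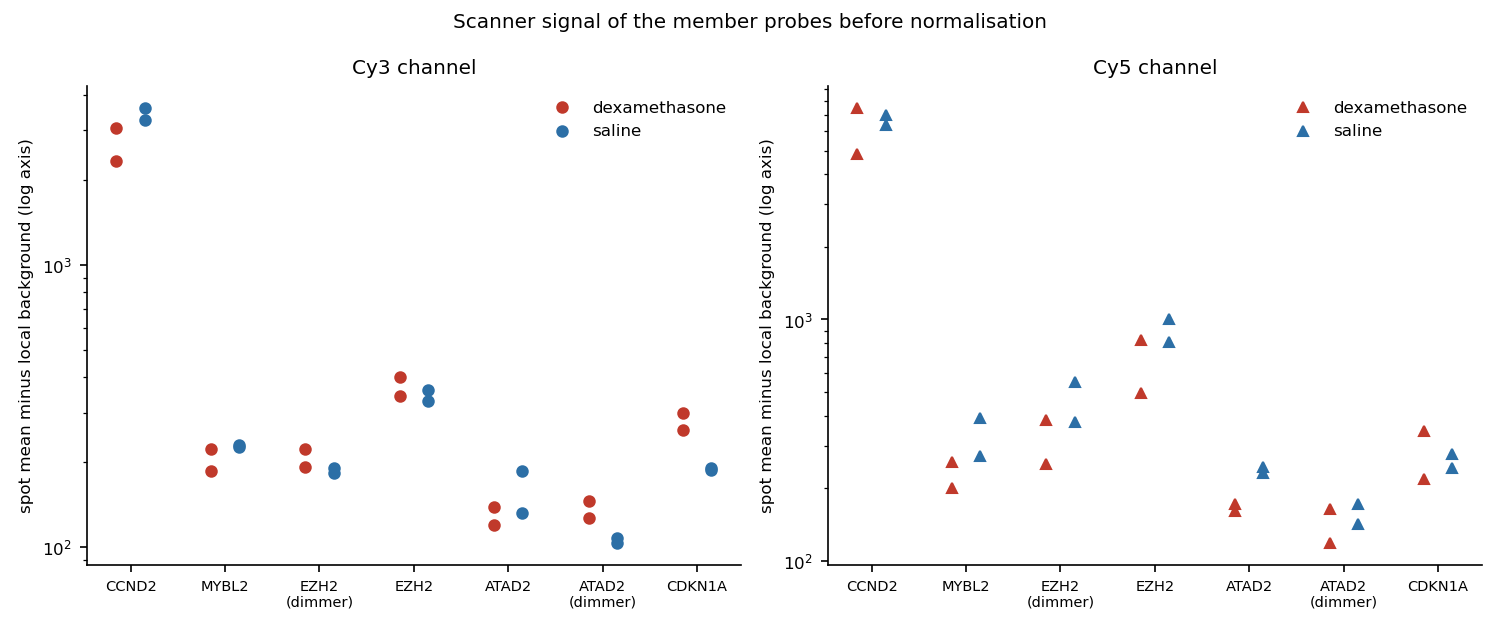
Scanner signal of each member probe, the spot mean minus its local background in scanner units on a log axis, in Cy3 (left) and Cy5 (right), with dexamethasone samples drawn left of saline samples for each probe. In both dyes MYBL2 is lower in each dexamethasone sample, EZH2 is not lower in Cy3, and CDKN1A is higher with dexamethasone in Cy3, at 299 and 261 against 188 and 190 with saline.

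ATAD2 encodes an ATPase with a bromodomain that acts as a coactivator with E2F and MYC. At the brighter probe its log2 intensity was 8.10, 8.47, 8.30 and 8.58 with dexamethasone, against 8.71, 8.67, 8.61 and 8.64 with saline. The groups did not overlap but were only 0.03 apart, and the saline samples were tightly grouped. The mean was 8.36 ± 0.21 with dexamethasone and 8.66 ± 0.04 with saline (SD, n = 4 each), a difference of -0.30 (SE 0.12), or 0.815 of the saline level. It was -0.46 in Cy3 and -0.13 in Cy5. The dimmer probe did not show it, with 8.30, 8.42, 8.22 and 8.34 with dexamethasone, against 8.19, 8.35, 8.37 and 8.39 with saline, a difference of -0.01 (SE 0.09). The mean of both probes gave -0.15. Before normalisation the brighter probe overlapped in Cy3, at 120 and 139 with dexamethasone against 186 and 132 with saline. In Cy5 it was lower, at 162 and 172 with dexamethasone against 231 and 245 with saline. The dimmer probe was higher in Cy3, at 146 and 127 with dexamethasone against 103 and 108 with saline. In Cy5 the dimmer probe overlapped, at 165 and 119 with dexamethasone against 143 and 173 with saline. The ATAD2 probes were dim, at 4.88 to 7.67 times the background for the brighter and 4.00 to 6.68 times for the other. The brighter was well above background in 2 of 4 dexamethasone samples and 3 of 4 saline samples, the other in 2 of 4 in each group, and in both cases the dexamethasone samples that passed were those in Cy5.

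CDKN1A encodes p21, an inhibitor of cyclin-dependent kinases that glucocorticoids raise in several cultured cell types. Its log2 intensity was 9.10, 8.43, 8.96 and 8.97 with dexamethasone, against 8.72, 8.71, 8.82 and 8.79 with saline. Dexamethasone samples 1, 3 and 4 lay above all saline samples and dexamethasone 2 lay below all of them. The mean was 8.86 ± 0.30 with dexamethasone and 8.76 ± 0.05 with saline (SD, n = 4 each), a difference of 0.11 (SE 0.16), which was smaller than its standard error. Without dexamethasone 1 it was -0.01, without dexamethasone 2 it was 0.26 (SE 0.12), without dexamethasone 4 it was 0.035, and without saline 1 it was 0.056. With the array of dexamethasone 1 and 2 left out it was 0.21, with that of dexamethasone 3 and 4 left out 0.0061, and with that of saline 1 and 2 left out 0.062. With 75th percentile scaling or loess alone it lay 0.37 below the median of all genes (-0.61 and -0.96 in itself). In Cy3 it was 0.26 and in Cy5 -0.05. The value thus turned on single samples, and 65.0% of all genes had a lower difference.

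Among the other genes of the pathway, lists of 130 genes held 91 with a probe and 64 that could be compared. The fit called 0 of the 64, with the smallest adjusted p at 0.129 (limma, Benjamini-Hochberg over all genes), beside the 0.0622% called of all genes. Of the 64, 46 lay below 0 and 18 above, with a median of -0.15, and 13 had dexamethasone samples wholly below saline samples, while 0 had them wholly above (7.44% and 5.92% of all genes). The lists were chosen with earlier results of these data known.

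**Figure D3:**
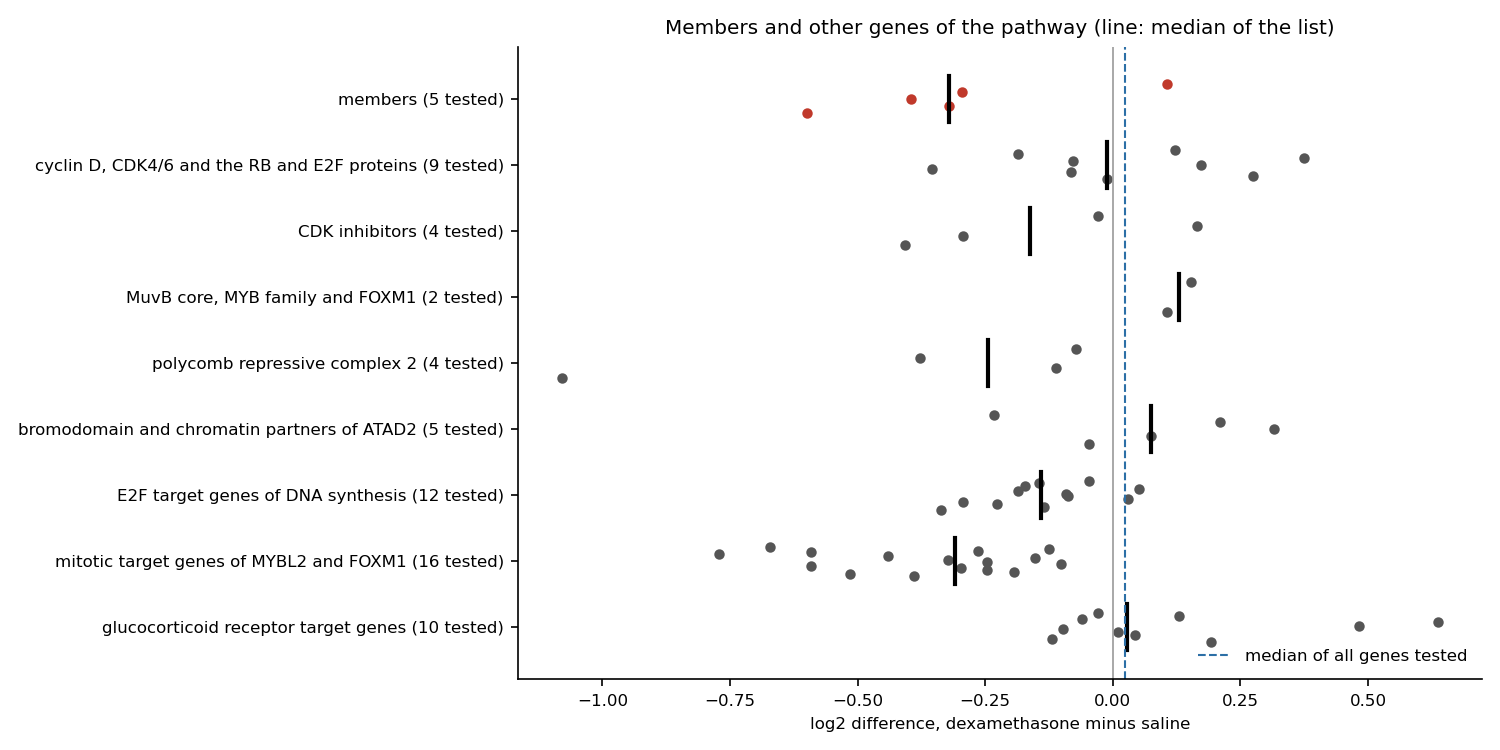
Log2 difference, dexamethasone minus saline (horizontal axis), of the 5 members (red) and of the tested genes of 8 lists (grey), with a black line at each list's median and a dashed line at 0.02, the median of all genes tested. All 16 tested mitotic genes lie to the left of 0, while the cyclin D, RB and E2F genes lie on both sides of it.

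The genes listed under cyclin D, CDK4 and CDK6, and the RB and E2F proteins, MYC among them, showed no common direction. Of these, 5 of 9 tested lay below 0, with a median of -0.01. The kinase CDK4 differed by 0.27 (SE 0.13) and the cyclin CCND3 by -0.01 (SE 0.10). Of the RB proteins, RB1 differed by -0.08 (SE 0.17), RBL1 by -0.35 (SE 0.15), with no overlap, and RBL2 by 0.17 (SE 0.18). E2F5, a repressive E2F, differed by -0.08 (SE 0.09). CDK6, CCNE1, CCNE2, CDK2 and E2F3 had probes but were well above background in at most 3 samples. Among the other CDK inhibitors, 3 of 4 tested lay below 0, with CDKN1B at -0.41 (SE 0.20), CDKN2C at -0.29 (SE 0.15), without overlap, and CDKN2D at 0.16 (SE 0.15).

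Among growth arrest genes, the antiproliferative BTG2 differed by -0.72 (SE 0.35) and GADD45A, a DNA damage response gene, by -0.24 (SE 0.36), while the kinase PLK2 differed by 0.43 (SE 0.24) and the cell death gene BAX by 0.25 (SE 0.13), so these genes lay on both sides of 0. The marker genes of glucocorticoid receptor action were divided, with 6 of 10 above 0 and a median of 0.03. Of the 10, 1 had dexamethasone samples wholly above saline samples and 0 wholly below, beside 5.92% and 7.44% of all genes. The split was not stable. Without the array of saline 3 and 4, 10 of 10 lay above 0 with a median of 0.21, and without that of saline 1 and 2 the median was -0.01. It was 0.30 from the processed signals, and -0.88 with 75th percentile scaling and -1.23 with loess alone, or 0.64 below the median of all genes in both. TXNIP, a metabolic glucocorticoid target, differed by 0.64 (SE 0.29), and NFKBIA, an inhibitor of NF-kB, by -0.03 (SE 0.18).

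Chromatin partners of the members were few on this array. All 4 tested genes listed under polycomb repressive complex 2, EZH2 apart, lay below 0, with a median of -0.24. RBBP4, which also belongs to this complex, was listed with MuvB and lay above 0, as given below. Of the 4 listed genes, 3 lay below 0 from processed signals, with 75th percentile scaling and in the deposited table. The same count held without the array of saline 3 and 4. RBBP7, a histone-binding subunit, had the lowest difference, -1.08 (SE 0.60), with a saline SD of 1.38. MTF2, an accessory subunit, differed by -0.38 (SE 0.23), whereas EZH1, the other methyltransferase of the complex, passed the background flag in 0 samples. Of the MuvB core, MYB family and FOXM1, which work with MYBL2, 2 were tested and both lay above 0, RBBP4 at 0.15 (SE 0.22) and LIN37 at 0.11 (SE 0.14). FOXM1, LIN9 and LIN54 reached the filter in at most 3 samples. Of the bromodomain and chromatin partners of ATAD2, 2 of 5 lay below 0, with BRD7 at 0.32 (SE 0.17) and BRD2 at -0.05 (SE 0.18), while its paralog ATAD2B passed that flag in 0 samples.

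Of the genes that E2F and MYBL2 are known to activate, 0 passed the test. Of the E2F targets of DNA synthesis, 10 of 12 tested lay below 0 with a median of -0.14. Dexamethasone samples lay wholly below saline samples for MCM4, MCM6 and RRM2, where MCM4 and MCM6 had only 3 saline values each. MCM6, a subunit of the replicative helicase, differed by -0.29 (SE 0.12), while PCNA, the sliding clamp, differed by -0.09 (SE 0.12) and RRM1, a ribonucleotide reductase subunit, by -0.09 (SE 0.12). Of the mitotic targets of MYBL2 and FOXM1, 16 of 16 tested lay below 0 with a median of -0.31, and 7 had no overlap. Beside both lists, 45.7% of all genes lay below 0 and 7.44% had dexamethasone samples wholly below saline samples. The mitotic cyclin CCNB1 differed by -0.39 (SE 0.10) and the kinesin KIF20A by -0.67 (SE 0.31), with a saline SD of 0.73. The KIF20A probe averaged 14.77 with dexamethasone and 15.44 with saline, far above CCNB1 at 10.36 and 10.75. Whether it reads KIF20A alone was not tested.

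The mean deviation of the mitotic genes from their own averages ran from -0.28 to -0.10 in the dexamethasone samples and from 0.15 to 0.23 in the saline samples. For the DNA synthesis genes it ran from -0.09 to -0.02 with dexamethasone and from 0.01 to 0.12 with saline. The groups did not overlap on either score. With each array left out in turn, an alternative added after the data were seen, 15 or 16 of 16 mitotic genes stayed below 0. With each channel scaled to its 75th percentile, 13 of 16 mitotic genes and 5 of 12 DNA synthesis genes lay below the median of all genes, and the same counts held with loess alone. Under both, the median of the DNA synthesis genes lay 0.07 above that of all genes, so their lower position relative to other genes was lost. In the authors' deposited table, 6 of 12 DNA synthesis genes lay below 0, where the median of all genes was 0.13, and 9 of 12 lay below that median.

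Summed marker levels of the dividing cell types overlapped between the groups. Of the neural progenitor and neuroblast markers, 6 of 18 had a probe and 2 of 5 tested lay below 0, with mean deviations of -0.12 to 0.16 with dexamethasone and -0.06 to 0.07 with saline. Of the oligodendrocyte precursor markers, 6 of 10 had a probe and 3 of 4 tested lay below 0, with -0.21 to 0.22 with dexamethasone and -0.04 to 0.14 with saline. Their defining genes SOX2, PDGFRA and OLIG2 had no named probe. For microglia the mean deviation was -0.21 to 0.09 with dexamethasone and -0.17 to 0.29 with saline, and for blood cells -0.24 to 0.00 with dexamethasone and -0.28 to 0.39 with saline. Of the astrocyte markers 7 of 8 tested lay above 0 with a median of 0.15, and the mean deviation was -0.17 to 0.18 with dexamethasone and -0.16 to -0.0042 with saline. The ranges of the groups overlapped for these and the other 5 marker lists. Single markers had no overlap, as did 13.4% of all genes. They were S100A9 of blood cells at -0.93 (SE 0.13), ABCB1 of vessels at 0.73 (SE 0.14, only 3 saline values) and MAL of mature oligodendrocytes at 0.51 (SE 0.16). The others were ATP1B2 of astrocytes at -0.52 (SE 0.16), SYT1 of neurons at -0.32 (SE 0.13) and KL of choroid plexus at -0.49 (SE 0.16). Each of these lists held markers of the other sign. For blood cells 2 of 4 lay above 0, for vessels 2 of 4 below and for mature oligodendrocytes 1 of 4 below. For neurons 5 of 7 lay above 0 and for meninges and choroid plexus 6 of 9. The fit called 0 markers. The part of any cell type in the members' differences was not tested.

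The genes with the most similar profile to each member were sought by the root mean square difference of log2 values over the 8 samples, after the mean of each dye had been taken off each gene, among 5737 genes with a symbol and 8 values. For CCND2 they were ORYCUNV1R1631 (0.07), SOHLH2 (0.09) and LPAR3 (0.11), against a median of 0.41 over all genes. For MYBL2 they were MAGI1 (0.03), UBE2D1 (0.04) and MTPN (0.05), against a median of 0.25. EZH2 was closest to ARID2 (0.07), ZNF691 (0.07) and HTR3A (0.07), against 0.30, and ATAD2 to PANK3 (0.06), TFF1 (0.06) and NT5DC3 (0.06), against 0.26. CDKN1A was closest to TENT5C (0.05), PCSK1N (0.05) and CLYBL (0.06), against 0.23. No member and no gene of the pathway lists was among these 15 genes, and the samples behind the measure share arrays and slides.

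**Figure D4:**
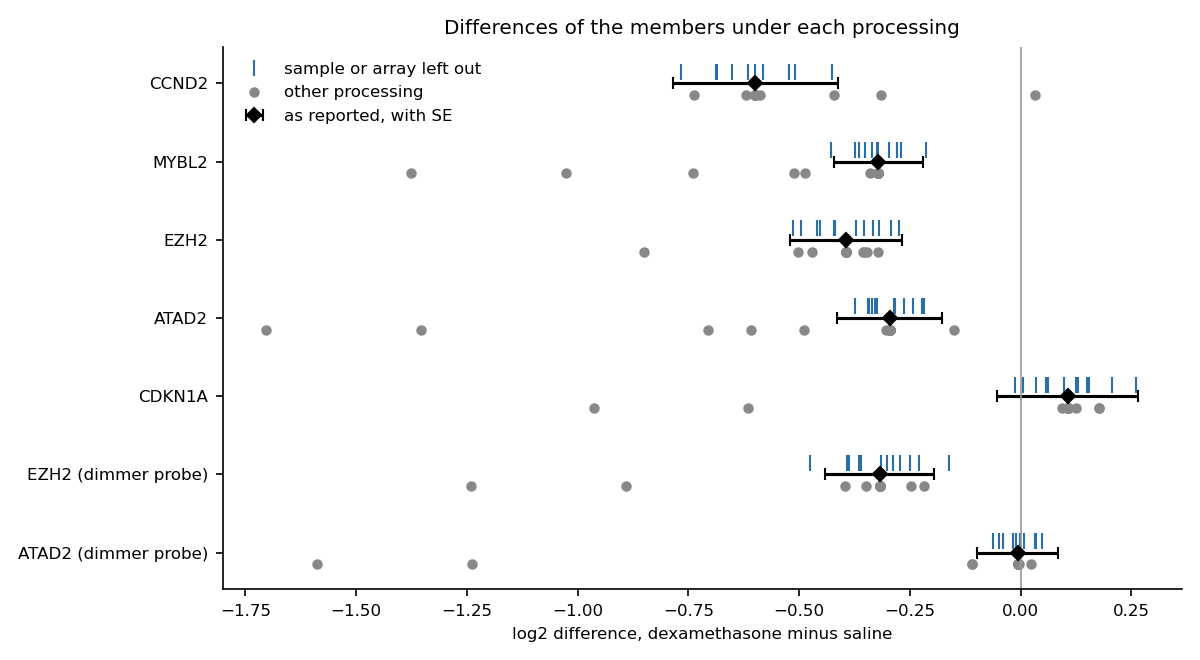
Log2 difference, dexamethasone minus saline (horizontal axis), of the 5 members and the dimmer EZH2 and ATAD2 probes, as reported with SE (black diamonds), with a sample or array left out (blue ticks) and under other processing (grey points). MYBL2, both EZH2 probes and the brighter ATAD2 probe stay left of 0 in every alternative drawn, CCND2 reaches 0.034 under 75th percentile scaling, and CDKN1A falls on both sides.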

How the data were processed

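The deposited scanner files give spot intensity per dye, which the authors produced with Agilent Feature Extraction. Its version is 11.0.1.1 per the file headers, where the submitters' processing notes give 10.7.3.1; each of the 4 files was deposited for both samples of its array, and each sample was read from its own dye. The authors' deposited series table is a ratio per spot, the median minus the background median intensity divided by a constant per column, found here by comparison with the scanner values. Processed intensity in the deposited files served as an alternative.

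Intensities were corrected with normexp (offset 50), normalised by loess within arrays and Aquantile between them, and taken as log2 per dye; control and outlier spots had weight 0 and outlier spots were left out, none of them a member's. Probes that 4 or more of 8 samples showed well above background (23165) with 3 values in each group were kept (20704), and the brightest stood for its gene. Groups were compared with limma 3.58.1 in R 4.3.3, with dye as covariate and array as a random block, and the Benjamini-Hochberg method over all genes. SEs are from this fit. The fit was also run on simulated data with changes larger than those of the members and no slide or scan effect. That run did not examine the SEs. Probes were named by accession, symbol or description through RefSeq (mOryCun1.1), which gave 22553 of 43603 probes 1 symbol. Number of arrays limits precision.

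The members and lists were chosen with earlier results of these data known. The genes named are all members, pathway genes fixed by name, the 2 brightest tested genes of each other list, and the 3 profiles most like each member; MCM4, MCM6, RRM2 and the cell type markers, among others, were named after their values were seen. Same-numbered samples of the groups were not treated as paired, and the correlations of their deviations were -0.14 to 0.09. Whether they shared a litter or batch was not tested. Results for some genes of the lists are not reported here.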

Additional observations from a re-analysis of the deposited data

Results flagged for a closer look

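The log2 intensity of EZH2 at its brighter probe was 9.64 in dexamethasone 2, farther from the other dexamethasone samples (9.30, 9.26 and 9.26) than Dixon's test allows at the 95% level. This was 1 of 14 groups of 4 values examined over the 7 probes, and chance alone flags about 1 group in 20. The dimmer EZH2 probe was also highest in dexamethasone 2, at 9.0.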

How the results depend on the processing

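The members' differences were recomputed under 29 alternatives (28 for ATAD2, whose brighter probe drops out when all 8 samples must be well above background), and MYBL2, EZH2 and ATAD2 were below 0 in all of theirs. CCND2 was above 0 in 1 and CDKN1A below 0 in 3. Alternatives that changed only the fit or the filter on probes left the differences as they were, so they could not change a sign. The median of all genes moved by over 0.1 under 3 of the 29 alternatives. It moved to -0.24 with 75th percentile scaling without loess, to -0.59 with loess alone, and to 0.13 in the deposited table. With 75th percentile scaling CCND2 was 0.034, MYBL2 -1.03, ATAD2 -1.35, CDKN1A -0.61 and the members' median -0.61. With loess alone CCND2 was -0.32, MYBL2 -1.38, EZH2 -0.85, ATAD2 -1.70, CDKN1A -0.96 and the members' median -0.96. From the processed signals MYBL2 was -0.74, ATAD2 -0.71 and the members' median -0.71. Without background subtraction these were -0.49, -0.49 and -0.49, and in the deposited table -0.51, -0.61 and -0.42. With a sample or array left out, MYBL2 ran from -0.43 to -0.21 and the members' median from -0.43 to -0.27. The cause of these moves was not tested. The counts called, 7 genes and 7 probes as reported, were 14 genes and 14 probes from processed signals, 2084 and 3342 with 75th percentile scaling, 0 and 0 with loess alone, 2 and 2 without a filter on dim probes, 3 and 2 with all 8 samples above background, 23 and 28 without the array block, 18 and 19 without the dye term, 0 and 0 on array means, 23 and 12 at an adjusted p under 0.10, and 1546 and 2625 at an unadjusted p under 0.05. Quantile scaling gave 3 probes and the mean of a gene's probes 11 genes. With samples or arrays left out the counts ran from 0 to 2215 genes and from 0 to 3099 probes. Leaving out an array left 1 array in its group, so the spread between arrays of that group was not measured. Of the genes called, 2 were higher and 5 lower as reported, 6 and 8 from processed signals, 4 and 4 without background subtraction, 4 and 3 with quantile scaling, and 44 and 2040 with 75th percentile scaling. The samples were not treated as paired by replicate number. With the replicate block in place of the dye term and the array block kept, the fit called 5 genes and 0 probes. Without the array block it called 1 gene and 0 probes. The single spot per member probe and, for ATAD2, signal near the background limit the precision.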
